A study of Mus musculus with 2 samples.

Results

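The 10 genes described here are feedback inhibitors and output genes of the RAS-MAPK pathway in mouse liver tumours: the phosphatases Dusp6 (ENSMUSG00000019960), Dusp4 (ENSMUSG00000031530) and Dusp5 (ENSMUSG00000034765), the Sprouty genes Spry1 (ENSMUSG00000037211), Spry2 (ENSMUSG00000022114) and Spry4 (ENSMUSG00000024427), the Sprouty-related genes Spred1 (ENSMUSG00000027351) and Spred2 (ENSMUSG00000045671), and the ETS transcription factors Etv4 (ENSMUSG00000017724) and Etv5 (ENSMUSG00000013089). They were taken from a fixed list, chosen with earlier results of these data known, and matched by symbol. All 10 of 10 matched, out of 55450 genes in the deposited tables. None overlaps another gene on its own strand in GENCODE vM21, while Dusp5, Spry1 and Spry4 overlap genes on the other strand. Droplet single-cell RNA sequencing was done on tumours of C57BL/6 mice after hydrodynamic tail vein injection, in which plasmid DNA is pushed into liver cells in vivo and a Sleeping Beauty transposase inserts it into their genome. The NRAS.MYC.ND group received 19 µg of a human N-Ras plasmid, 1 µg of a human c-Myc plasmid and 2 µg of the transposase plasmid. The AKT1.MYC group received 10 µg of an Akt1 plasmid, 10 µg of the human c-Myc plasmid and 5 µg of the transposase plasmid. Tumours were taken 14 weeks after injection in both groups. Both groups thus carried c-Myc, at different plasmid amounts, and no group without an oncogene was measured. Each group is 1 library, and the sources used here do not say how many animals went into it.

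In this pathway an active RAS protein switches on the kinases RAF, MEK and ERK in turn, and ERK then induces genes that damp the same cascade. Dusp6 removes phosphate from ERK in the cytoplasm, Dusp5 does so in the nucleus, and Dusp4 is an inducible nuclear phosphatase of MAP kinases. Sprouty proteins act on signalling from receptor tyrosine kinases, and Spred proteins lower RAS activity through neurofibromin. Etv4 and Etv5 are transcription factors of the PEA3 group of ETS proteins that are induced downstream of ERK in many tissues. Because they follow pathway activity, these transcripts are often read as a group, although each of them is also regulated in its own way in endothelial, immune and stromal cells.

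RefSeq promoter sequences (GRCm38.p6, 250 bases before to 50 bases after a start site) matched 7 of the 10 genes. Promoters of Dusp5, Spry2, Dusp6 and Spred2 are shown because these genes were higher in epithelial cells of NRAS.MYC.ND by very different factors, and because Dusp5 and Spry2 were the ones with a motif match. The motifs searched, on both strands, were the ETS core CCGGAA, the AP-1 site TGANTCA, the cyclic AMP response element TGACGTCA and the CArG box of serum response factor. Capitals mark the matches, and the sequences run 5′ to 3′ on the strand of the gene.
Dusp5: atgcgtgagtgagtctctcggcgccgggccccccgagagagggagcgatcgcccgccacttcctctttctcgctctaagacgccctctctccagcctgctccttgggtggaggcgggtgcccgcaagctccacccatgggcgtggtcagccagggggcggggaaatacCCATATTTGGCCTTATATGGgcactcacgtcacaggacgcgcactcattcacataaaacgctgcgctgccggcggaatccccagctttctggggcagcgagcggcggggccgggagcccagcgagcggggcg
Spry2: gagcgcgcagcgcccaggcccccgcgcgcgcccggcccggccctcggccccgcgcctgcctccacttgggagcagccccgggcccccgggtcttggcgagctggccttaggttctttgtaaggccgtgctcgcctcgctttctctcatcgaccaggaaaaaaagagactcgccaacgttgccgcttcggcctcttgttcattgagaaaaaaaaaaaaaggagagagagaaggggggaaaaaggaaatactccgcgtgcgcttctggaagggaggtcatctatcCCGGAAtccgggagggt
Dusp6: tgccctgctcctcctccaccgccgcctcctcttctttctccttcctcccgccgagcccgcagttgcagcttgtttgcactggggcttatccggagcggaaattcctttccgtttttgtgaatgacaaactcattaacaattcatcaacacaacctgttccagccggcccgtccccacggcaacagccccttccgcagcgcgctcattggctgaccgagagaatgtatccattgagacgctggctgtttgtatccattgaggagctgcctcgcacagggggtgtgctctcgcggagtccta
Spred2: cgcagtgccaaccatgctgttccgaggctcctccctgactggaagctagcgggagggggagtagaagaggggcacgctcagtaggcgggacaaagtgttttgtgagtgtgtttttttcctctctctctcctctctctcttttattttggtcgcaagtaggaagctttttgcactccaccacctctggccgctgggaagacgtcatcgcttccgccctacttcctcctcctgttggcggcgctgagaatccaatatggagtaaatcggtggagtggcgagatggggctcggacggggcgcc
The Dusp5 window lies at chr19:53528895-53529194 on the plus strand and holds a pair of adjoining CArG boxes, which begin 82 and 72 bases before the start site. The Spry2 window lies at chr14:105896770-105897069 on the minus strand and holds 1 ETS core, which begins 33 bases after the start site. The Dusp6 window (chr10:99262981-99263280, plus strand) and the Spred2 window (chr11:19924192-19924491, plus strand) held none of the 4 motifs, and neither did the windows of Spred1, Spry1 and Etv5. Among all 32851 promoters of the same length, 14.9% held the ETS core, 7.81% the AP-1 site, 1.79% the cyclic AMP response element and 1.63% a CArG box. A match describes letters in the window only. Dusp4, Spry4 and Etv4 had no entry in the table.

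There were 6312 cell barcodes in the library of NRAS.MYC.ND, against 10766 for AKT1.MYC, with 42416125 unique molecular identifiers (UMIs) in NRAS.MYC.ND against 64516171 in AKT1.MYC (each standing for 1 captured molecule). After filtering, 5634 cells of NRAS.MYC.ND were kept, against 9398 of AKT1.MYC, with medians of 4240 UMIs in NRAS.MYC.ND against 1987 UMIs in AKT1.MYC, and 17 barcode sequences occurred in both libraries. Cells were gated by markers that did not include any of the 10 genes, and 6 classes had at least 30 cells in each library. No gate was met by 11.0% of cells in NRAS.MYC.ND, against 37.0% in AKT1.MYC, whose median depth was 1545 UMIs in NRAS.MYC.ND against 881 UMIs in AKT1.MYC. A further 3.6% of cells in NRAS.MYC.ND, against 3.72% in AKT1.MYC, met several gates and were given no class either. Epithelial cells of NRAS.MYC.ND carried 1440 CPM of Nras (a gene's UMIs scaled to those of its class), against 70.6 CPM in AKT1.MYC, and 65.5 CPM of Akt1, against 253 CPM in AKT1.MYC, the order the labels give. Myc stood at 133 CPM in NRAS.MYC.ND and 111 CPM in AKT1.MYC. Whether reads from the human plasmids are among the UMIs assigned to the mouse genes was not tested. Levels below are CPM of a class sum with an exact Poisson interval at 95%, and ratios are log2 of NRAS.MYC.ND over AKT1.MYC with an exact conditional binomial interval. Both intervals cover counting error only, and with 1 library per group no test between groups was possible.

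The genes differed in the class where they were highest. Among the phosphatases, Dusp6 was highest in endothelial cells of both libraries, at 137 CPM in NRAS.MYC.ND and 151 CPM in AKT1.MYC. Monocytes and macrophages came next, at 106 CPM in NRAS.MYC.ND and 82.8 CPM in AKT1.MYC, with an interval apart from that of endothelial cells in both libraries, and their interval overlapped that of neutrophils at 88.7 CPM in NRAS.MYC.ND against 68.3 CPM in AKT1.MYC. Epithelial cells were the lowest of the 6 classes for Dusp6 in both libraries, although in NRAS.MYC.ND their level of 52.5 CPM overlapped those of T and NK cells and of fibroblasts and mural cells.

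Dusp5 had another order. T and NK cells stood at 149.5 CPM in NRAS.MYC.ND and 217 CPM in AKT1.MYC, and neutrophils at 121 CPM in NRAS.MYC.ND and 162 CPM in AKT1.MYC, with overlapping intervals between these classes in each library. In NRAS.MYC.ND the 48 plasmacytoid dendritic cells reached 167 CPM, which overlapped the T and NK level. The lowest class for Dusp5 was monocytes and macrophages in NRAS.MYC.ND, at 13.7 CPM, and fibroblasts and mural cells in AKT1.MYC, at 21.9 CPM. Dusp4 was highest in epithelial cells (27.5 CPM) and T and NK cells (26.9 CPM) of NRAS.MYC.ND, which did not differ beyond counting error. In AKT1.MYC, T and NK cells (21.1 CPM, 7 UMIs) and fibroblasts and mural cells (13.7 CPM) led for Dusp4, and epithelial cells followed at 7.25 CPM.

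The Sprouty genes Spry1 and Spry4 were highest in vessels and stroma. Spry1 was highest in fibroblasts and mural cells, at 197 CPM in NRAS.MYC.ND and 66.9 CPM in AKT1.MYC, followed by endothelial cells at 127 CPM in NRAS.MYC.ND and 59.9 CPM in AKT1.MYC; the intervals were apart in NRAS.MYC.ND and overlapped in AKT1.MYC. Spry4 was concentrated in endothelial cells: endothelial cells had 81.7 CPM in NRAS.MYC.ND against 51.3 CPM in AKT1.MYC, fibroblasts and mural cells 19.3 CPM in NRAS.MYC.ND and 17.5 CPM in AKT1.MYC, and monocytes and macrophages 1.13 CPM in NRAS.MYC.ND and 1.20 CPM in AKT1.MYC. Endothelial cells were 15.5% of kept cells and held 90.9% of all Spry4 UMIs in NRAS.MYC.ND. In AKT1.MYC they were 4.51% of kept cells and held 51.1% of them. Over all kept cells, which differ in depth, Spry4 stood at 19.1 CPM in NRAS.MYC.ND and 5.225 CPM in AKT1.MYC. Spry2 was low throughout. Its highest level was 34.7 CPM in fibroblasts and mural cells of NRAS.MYC.ND, on 9 UMIs, and 21.1 CPM in T and NK cells of AKT1.MYC, on 7 UMIs, and both overlapped the next class.

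Spred1 was highest in endothelial cells of NRAS.MYC.ND (99.4 CPM) and in fibroblasts and mural cells of AKT1.MYC (88.1 CPM), where endothelial cells at 83.8 CPM overlapped. Monocytes and macrophages also carried Spred1, at 43.9 CPM in NRAS.MYC.ND against 45.5 CPM in AKT1.MYC. Spred2 was highest in endothelial cells of both libraries, at 54.1 CPM in NRAS.MYC.ND and 23.3 CPM in AKT1.MYC, overlapping fibroblasts and mural cells in NRAS.MYC.ND and T and NK cells in AKT1.MYC.

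Etv4 was the gene whose leading class differed most plainly between the libraries. In NRAS.MYC.ND it stood at 40.2 CPM in epithelial cells (interval 34.6 to 46.6) and at 7.71 CPM in the next class, fibroblasts and mural cells. In AKT1.MYC it stood at 23.5 CPM in fibroblasts and mural cells (interval 19.2 to 28.6), ahead of endothelial cells at 6.05 CPM and epithelial cells at 3.50 CPM. Epithelial cells were 4.19% of the kept cells of NRAS.MYC.ND and held 67.4% of its Etv4 UMIs. In AKT1.MYC they were 18.2% of kept cells and held 39.6%. By UMIs of all genes, epithelial cells held 4475249 of 38004526 in NRAS.MYC.ND and 31705660 of 60289874 in AKT1.MYC. Over all kept cells Etv4 stood at 7.025 CPM in NRAS.MYC.ND and 4.64 CPM in AKT1.MYC. The epithelial level of AKT1.MYC, 3.50 CPM, was thus below that of its whole library. Etv5 was more even: epithelial cells (17.0 CPM), fibroblasts and mural cells (15.4 CPM) and monocytes and macrophages (14.6 CPM) overlapped in NRAS.MYC.ND. In AKT1.MYC, monocytes and macrophages led Etv5 at 17.3 CPM and epithelial cells were last at 3.91 CPM.

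**Figure D1:**
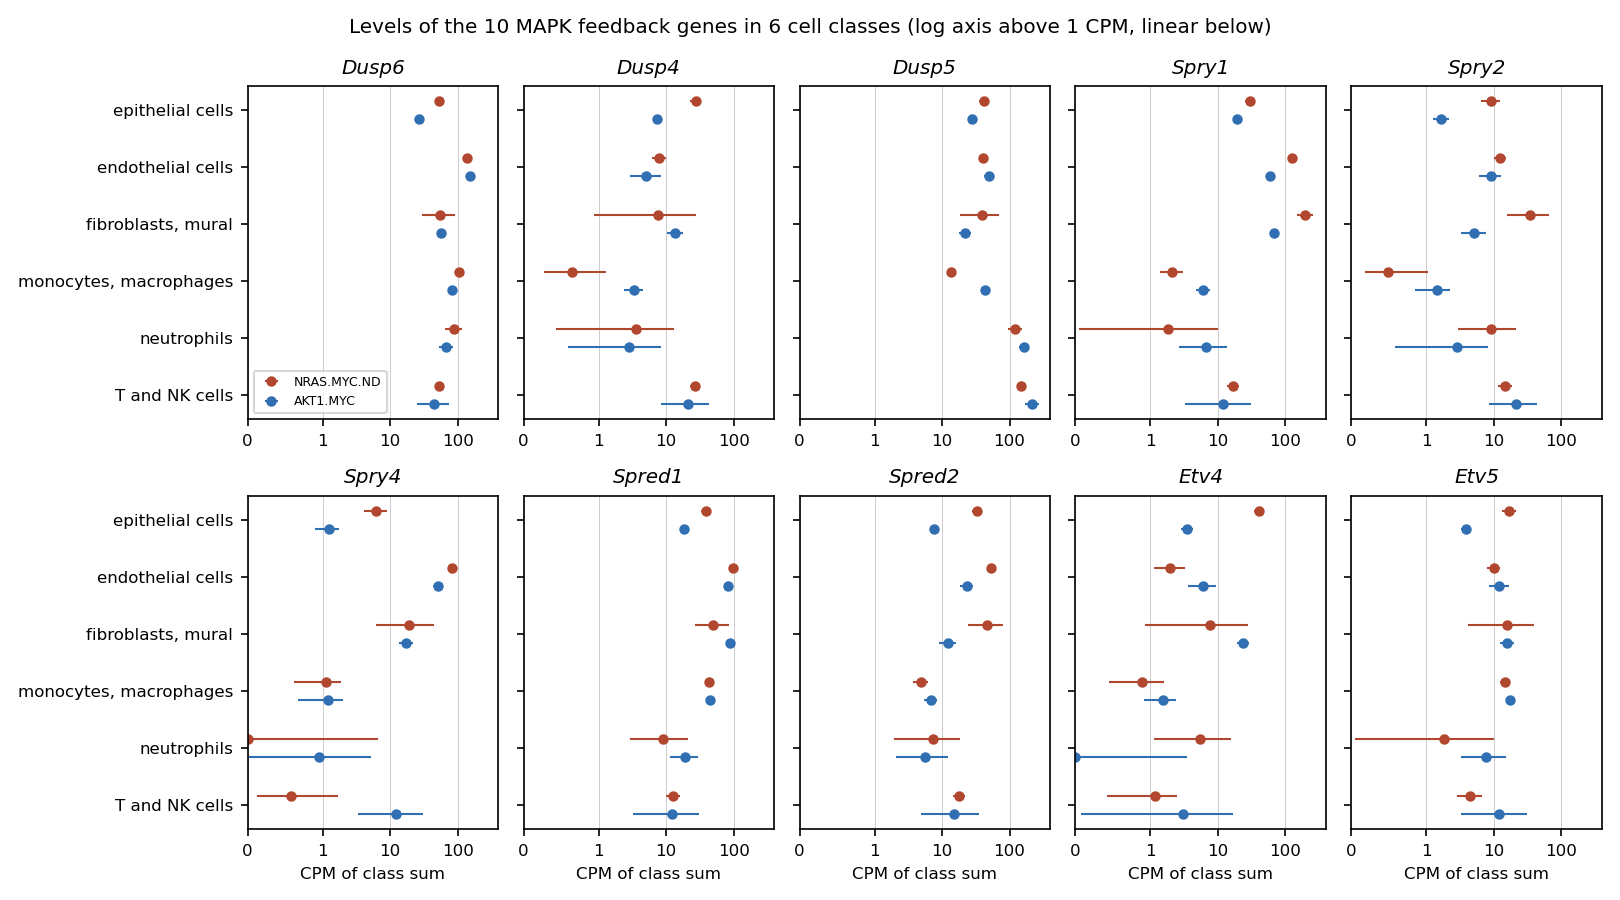
Level of each gene in 6 cell classes, in CPM of the class sum on an axis that is logarithmic above 1 CPM and linear below, for NRAS.MYC.ND (red, upper) and AKT1.MYC (blue, lower). Points are 1 library each and bars exact Poisson 95% intervals; the Etv4 panel shows epithelial cells at 40.2 CPM in NRAS.MYC.ND and 3.50 CPM in AKT1.MYC, and the Spry4 panel shows endothelial cells highest in both.

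Epithelial cells, the class that holds the tumour cells and any bile duct cells or hepatocytes, gave the widest difference between the models. All 10 genes had higher levels in the 236 epithelial cells of NRAS.MYC.ND than in the 1708 of AKT1.MYC, with every interval above 0. For 7 of the 10 the difference was 2-fold or more, and 0 were lower by as much; over all 16491 genes measured in this class, the share past 2-fold was 14.0% toward NRAS.MYC.ND and 14.3% toward AKT1.MYC. The median log2 ratio of the 10 genes was 2.01, and that of all measured genes was -0.13.

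The ETS factors stood farthest apart. Etv4 had 40.2 CPM (180 UMIs) in NRAS.MYC.ND and 3.50 CPM (111 UMIs) in AKT1.MYC, 11.5-fold higher with a log2 ratio of 3.52 (interval 3.17 to 3.88). Etv5 had 17.0 CPM in NRAS.MYC.ND and 3.91 CPM in AKT1.MYC, a log2 ratio of 2.12 (1.69 to 2.54). Both genes were thus separated well beyond counting error.

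Among the genes acting near RAS and the receptors, Spry2 had 8.94 CPM in NRAS.MYC.ND and 1.67 CPM in AKT1.MYC, a log2 ratio of 2.42 (1.79 to 3.04). Spry4 had 6.26 CPM in NRAS.MYC.ND and 1.26 CPM in AKT1.MYC, a log2 ratio of 2.31 (1.56 to 3.04). Both rested on few molecules, 40 UMIs in NRAS.MYC.ND against 53 UMIs in AKT1.MYC for Spry2, while Spry4 had 28 UMIs in NRAS.MYC.ND against 40 UMIs in AKT1.MYC. Spred2 had 32.6 CPM in NRAS.MYC.ND and 7.63 CPM in AKT1.MYC, a log2 ratio of 2.10 (1.79 to 2.40). Spred1, its close relative, had 38.7 CPM in NRAS.MYC.ND and 18.2 CPM in AKT1.MYC, a log2 ratio of 1.09 (0.83 to 1.33), and Spry1 had 29.9 CPM in NRAS.MYC.ND and 19.1 CPM in AKT1.MYC, a log2 ratio of 0.65 (0.37 to 0.93). Spred2 and Spred1, and likewise Spry2 and Spry1, had ratios whose intervals did not overlap, so relatives within a family differed in the size of their ratios.

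Of the phosphatases, Dusp4 had 27.5 CPM in NRAS.MYC.ND and 7.25 CPM in AKT1.MYC, a log2 ratio of 1.92 (1.59 to 2.24). Dusp6 had 52.5 CPM in NRAS.MYC.ND against 26.9 CPM in AKT1.MYC, a log2 ratio of 0.97 (0.75 to 1.18) that fell just short of 2-fold. Dusp5 had 41.6 CPM in NRAS.MYC.ND and 27.6 CPM in AKT1.MYC, a log2 ratio of 0.59 (0.36 to 0.82), the smallest of the 10.

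**Figure D2:**
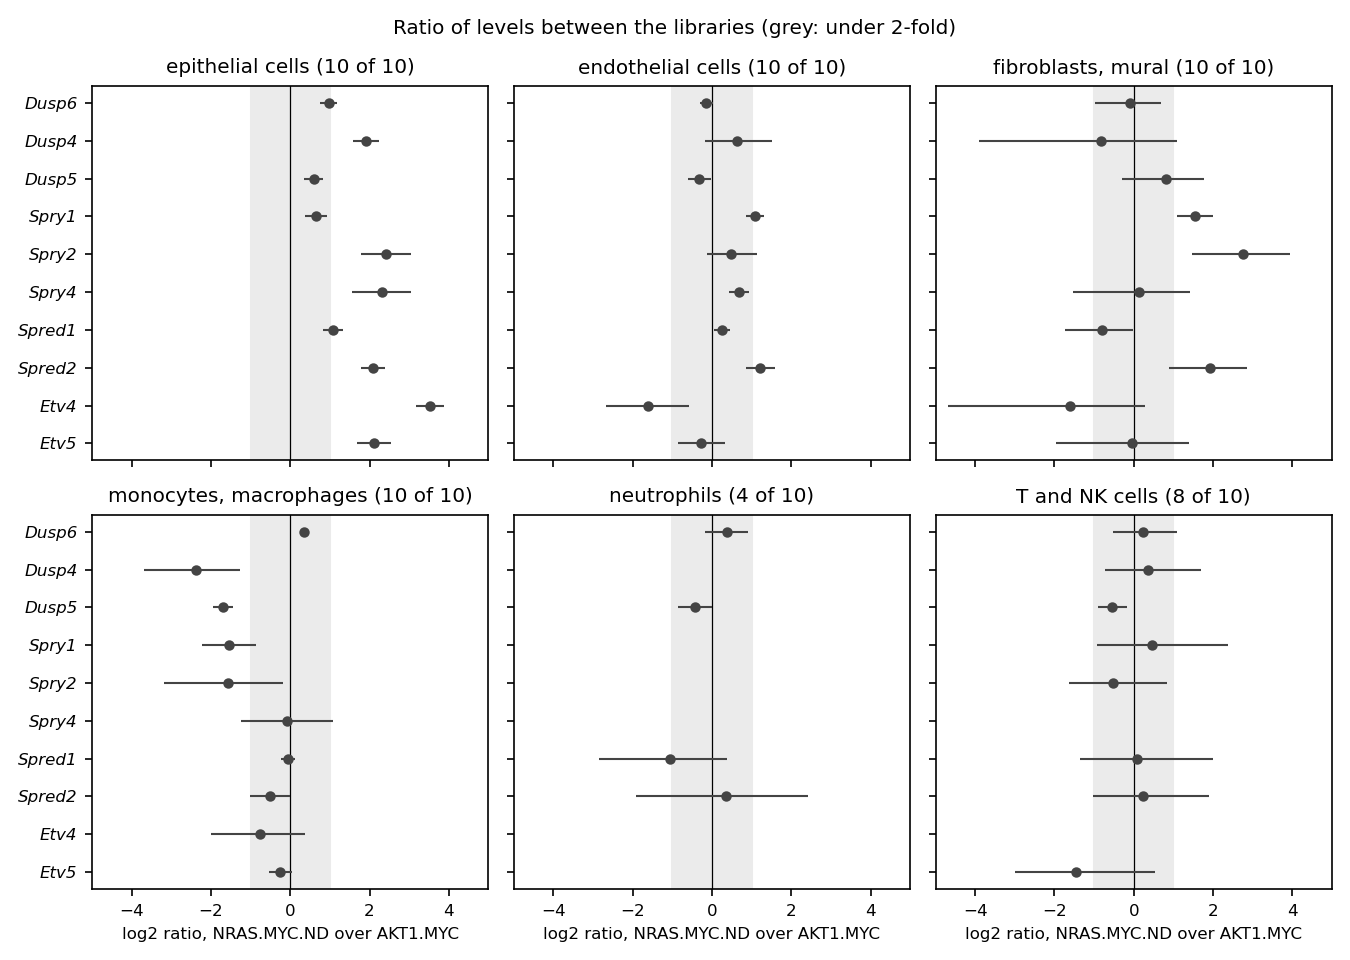
Log2 ratio of NRAS.MYC.ND over AKT1.MYC for each gene in 6 cell classes, with exact conditional binomial 95% intervals; genes under 10 UMIs over both libraries are not drawn and the grey band marks less than 2-fold. In epithelial cells all 10 points lie right of 0, with Etv4 at 3.52, whereas in monocytes and macrophages 4 points lie beyond 2-fold to the left.

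These ratios depended in part on how cells were weighted. With equal weight per cell the median log2 ratio was 1.19. In 1 random draw that thinned every cell to 1000 UMIs, 8 of the 10 genes had enough UMIs and their median was 1.04. Etv4, Etv5, Dusp4 and Spred2 stood at 2-fold or more there. The intervals of Dusp4 (-1.34 to 3.19) and Spred2 (-0.51 to 2.49) included 0. Dusp4 had 3 UMIs in NRAS.MYC.ND against 9 in AKT1.MYC, and Spred2 had 6 in NRAS.MYC.ND against 19 in AKT1.MYC. That draw left few molecules, so that Dusp5 had 5 UMIs in NRAS.MYC.ND against 36 UMIs in AKT1.MYC, a log2 ratio of -0.077 (-1.78 to 1.28). Spred1 had 4 UMIs in NRAS.MYC.ND against 35 UMIs in AKT1.MYC, a log2 ratio of -0.36 (-2.31 to 1.13). In a separate draw at the same depth both were seen in a larger share of epithelial cells of NRAS.MYC.ND. Dusp5 was seen in 3.43% there against 3.14% in AKT1.MYC, and Spred1 in 4.72% against 2.26% in AKT1.MYC. Dusp4 was seen in 0.858% in NRAS.MYC.ND against 1.01% in AKT1.MYC, and Spred2 in 4.72% in NRAS.MYC.ND against 0.818% in AKT1.MYC. No direction can be read from thinned values as low as those of Dusp4, Dusp5 and Spred1. The log2 ratio of Etv4 lay between 2.97 and 3.77 over the settings tried, the upper value from the thinned draw with 8 UMIs in NRAS.MYC.ND against 4 UMIs in AKT1.MYC; the separate draw gave 3 cells with an Etv4 UMI in NRAS.MYC.ND against 5 cells in AKT1.MYC.

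Counted by cells, the pattern split the 10 genes. After thinning to 5000 UMIs, which kept 196 of 236 cells in NRAS.MYC.ND and left out 512 of 1708 in AKT1.MYC, an Etv4 UMI was seen in 17.3% of epithelial cells of NRAS.MYC.ND (12.3 to 23.4) against 1.67% in AKT1.MYC (1.02 to 2.57); unthinned shares were 36.0% in NRAS.MYC.ND against 5.09% in AKT1.MYC. In monocytes and macrophages, which serve here as background for free RNA, the thinned Etv4 shares were 0.386% in NRAS.MYC.ND against 0.979% in AKT1.MYC, and the AKT1.MYC share overlapped that of its epithelial cells. Median depth before thinning was 15422 UMIs in NRAS.MYC.ND against 13092 UMIs in AKT1.MYC in epithelial cells and 7462 in NRAS.MYC.ND against 4089 in AKT1.MYC in monocytes and macrophages. Among thinned epithelial cells, Spred2 was seen in 14.8% in NRAS.MYC.ND against 3.93% in AKT1.MYC, Dusp4 in 10.2% in NRAS.MYC.ND against 3.09% in AKT1.MYC, and Etv5 in 10.7% in NRAS.MYC.ND against 2.51% in AKT1.MYC; the unthinned shares were 39.0% in NRAS.MYC.ND against 11.8% in AKT1.MYC for Spred2, 27.5% in NRAS.MYC.ND against 9.19% in AKT1.MYC for Dusp4, and 24.6% in NRAS.MYC.ND against 6.50% in AKT1.MYC for Etv5. The thinned background shares in monocytes and macrophages were 1.93% in NRAS.MYC.ND against 3.33% in AKT1.MYC for Spred2, whose AKT1.MYC value overlapped that of epithelial cells, and 0.193% in NRAS.MYC.ND against 1.27% in AKT1.MYC for Dusp4. Monocytes and macrophages were no free RNA background for Etv5, as they carried it at 14.6 CPM in NRAS.MYC.ND and 17.3 CPM in AKT1.MYC. Their thinned Etv5 share was 6.37% in NRAS.MYC.ND, with an interval that overlapped that of epithelial cells. In AKT1.MYC it was 7.35%, above that of its epithelial cells. Dusp6 was seen in 21.9% in NRAS.MYC.ND against 13.3% in AKT1.MYC, and Spred1 in 17.9% in NRAS.MYC.ND against 9.87% in AKT1.MYC, with unthinned shares of 46.2% in NRAS.MYC.ND against 30.1% in AKT1.MYC for Dusp6, while those of Spred1 were 43.6% in NRAS.MYC.ND against 24.4% in AKT1.MYC. The thinned shares of Dusp5 were 12.8% in NRAS.MYC.ND (8.43 to 18.3) against 13.2% in AKT1.MYC (11.3 to 15.3), and those of Spry1 were 11.2% in both libraries, so both genes had overlapping shares of cells in the libraries. The same held for Spry4, at 1.53% in NRAS.MYC.ND (0.317 to 4.41) against 1.09% in AKT1.MYC (0.580 to 1.85), although its ratio of summed UMIs was among the larger ones. Spry2 was seen in 4.08% in NRAS.MYC.ND (1.78 to 7.88) against 0.753% in AKT1.MYC (0.345 to 1.42). Unthinned shares were 31.8% in NRAS.MYC.ND against 27.2% in AKT1.MYC for Dusp5, while Spry1 had 30.1% in NRAS.MYC.ND against 24.2% in AKT1.MYC. Spry4 had 10.6% in NRAS.MYC.ND against 2.22% in AKT1.MYC, while Spry2 had 14.4% in NRAS.MYC.ND against 3.04% in AKT1.MYC.

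The epithelial cells of the models differed in lineage. By the summed UMIs of 6 hepatocyte and 5 bile duct markers, 227 of 236 cells in NRAS.MYC.ND were on the hepatocyte side and 9 on the duct side, against 430 on the hepatocyte side and 1278 on the duct side of 1708 in AKT1.MYC. The hepatocyte markers together stood at 36760 CPM in NRAS.MYC.ND and 1462 CPM in AKT1.MYC, and the duct markers at 492 CPM in NRAS.MYC.ND and 2363 CPM in AKT1.MYC, with none at 0. On the hepatocyte side alone, all 10 genes were again higher in NRAS.MYC.ND, 8 by 2-fold or more, beside 13.0% of all genes measured there, and the median log2 ratio was 2.00. Etv4 had 41.0 CPM on the hepatocyte side of NRAS.MYC.ND and 3.91 CPM on that of AKT1.MYC, and Dusp6 had 53.2 CPM in NRAS.MYC.ND against 25.8 CPM in AKT1.MYC. Lineage was still unequal on that side. Alb, the main hepatocyte plasma protein, had 15170 CPM in NRAS.MYC.ND and 1180 CPM in AKT1.MYC. The duct keratin Krt19 had 21.65 CPM in NRAS.MYC.ND and 440 CPM in AKT1.MYC, and Krt7 had 29.0 CPM in NRAS.MYC.ND and 171 CPM in AKT1.MYC. The part of this inequality in the ratios was not tested. Within AKT1.MYC the intervals of the 2 sides overlapped for 9 of the 10 genes: Etv4 had 3.36 CPM on the duct side and 3.91 CPM on the hepatocyte side, Spred2 had 7.65 and 7.57 CPM, and the 10 genes together had 120 and 109 CPM. Spry1 was the exception, with 20.3 CPM on the duct side and 15.5 CPM on the hepatocyte side, whose intervals did not overlap, and Spry2 had 1.96 CPM on the duct side and 0.855 CPM on the hepatocyte side, on 46 UMIs on the duct side and 7 UMIs on the hepatocyte side.

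**Figure D3:**
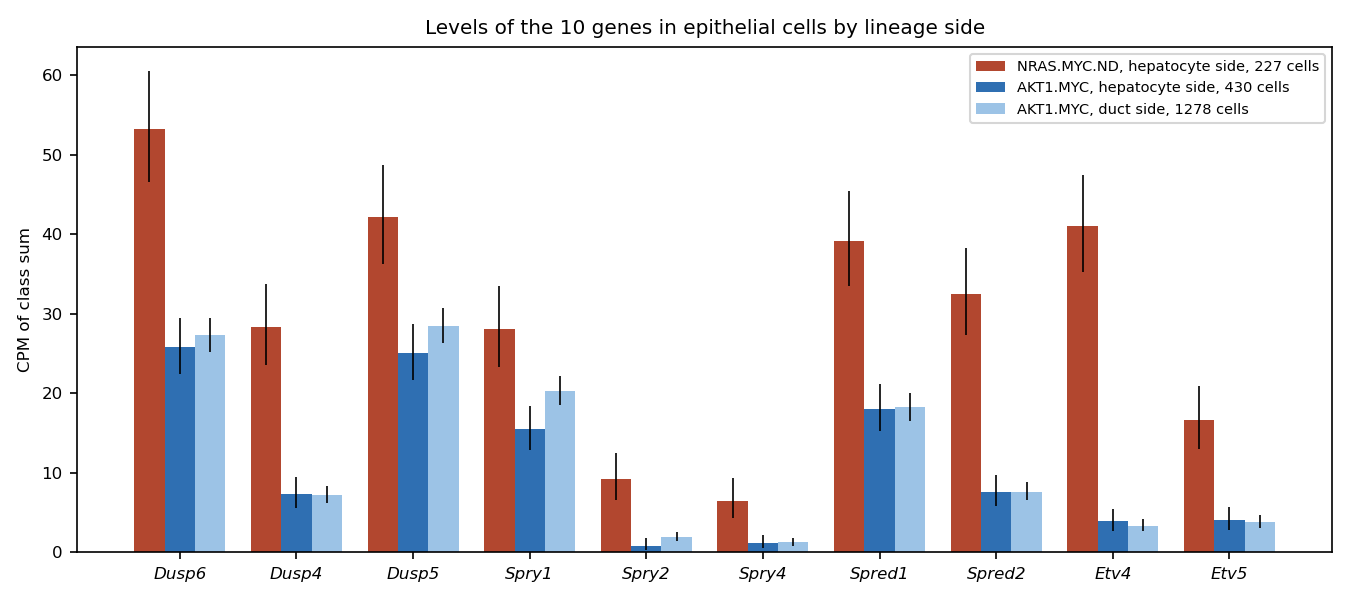
Level of each gene in epithelial cells on the hepatocyte side of NRAS.MYC.ND (red), the hepatocyte side of AKT1.MYC (dark blue) and the duct side of AKT1.MYC (light blue), in CPM with exact Poisson 95% intervals. The 9 duct-side cells of NRAS.MYC.ND are not drawn; both AKT1.MYC bars are below the NRAS.MYC.ND bar for each gene, and their ratio to each other is widest for Spry2.

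Cells with cell cycle transcripts had a lower sum of the 10 genes in both libraries. Over that sum, cycling epithelial cells of NRAS.MYC.ND had 219 CPM and the others 312 CPM. In AKT1.MYC the cycling cells had 100 CPM and the others 128 CPM. Nras stood at 979 CPM in the cycling cells of NRAS.MYC.ND and 1543 CPM in the others. In AKT1.MYC it stood at 68.7 CPM in cycling cells and 71.8 CPM in the others. The part of Nras in these sums was not tested. By gene, 7 of the 10 were lower in cycling cells of NRAS.MYC.ND. Of these, only Dusp6, Dusp4 and Etv4 had intervals apart, and those of Dusp5, Spred1, Spred2 and Etv5 overlapped. Spry1 (30.6 CPM in cycling cells and 29.8 CPM in the others), Spry2 (9.80 and 8.75 CPM) and Spry4 (9.80 and 5.47 CPM) were higher with overlapping intervals. In AKT1.MYC 9 of the 10 were lower, with intervals apart only for Dusp6, Dusp5 and Spry1. Spred2 had 8.11 CPM in cycling cells and 7.33 CPM in the others, with overlapping intervals. No share of all genes lower in cycling cells stands beside these counts. Without cycling cells, 7 of the 10 genes were higher in NRAS.MYC.ND by 2-fold or more, beside 12.4% of all genes, with a median log2 ratio of 1.93. Etv4 had 23.3 CPM in the 32 cycling cells of NRAS.MYC.ND and 44.0 CPM in the 204 others.

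Within NRAS.MYC.ND the genes varied unequally with Nras. Epithelial cells with at least 5000 UMIs were thinned to that depth and grouped by Nras UMIs: 28 cells had 0, 77 had 1 to 5 and 91 had 6 or more. Summed over the 10 genes, cells with 6 or more Nras UMIs had 366 CPM and cells with 0 to 5 had 207 CPM, a log2 ratio of 0.82 (0.65 to 0.99). Dusp4 had 6.93, 13.7 and 40.6 CPM at 0, 1 to 5 and 6 or more Nras UMIs, Dusp5 had 18.5, 26.8 and 54.4 CPM, and Etv4 had 25.4, 17.6 and 56.9 CPM. For each of these genes the interval of the highest group lay above those of both others, which overlapped each other. Dusp6 had 34.6, 35.9 and 62.8 CPM, Spred1 had 27.7, 31.4 and 46.0 CPM, and Spred2 had 20.8, 29.4 and 37.3 CPM, with overlap between the lowest and highest groups. Spry2 had 4.62, 1.96 and 14.2 CPM, and the first 2 of these values rest on 2 and 3 UMIs. Spry1 had the opposite order, with 53.1, 28.1 and 28.0 CPM, although its intervals overlapped. Spry4 and Etv5 differed by less than counting error between the groups.

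The grouping by Nras also sorted cells by lineage and depth. The duct keratin Krt19 stood at 122, 58.1 and 1.67 CPM at 0, 1 to 5 and 6 or more Nras UMIs, the epithelial adhesion gene Epcam at 949, 389 and 74.1 CPM, and Alb at 6744, 28970 and 7318 CPM. Summed, the 5 duct markers stood at 1286, 518 and 331 CPM and the 6 hepatocyte markers at 16320, 66130 and 22290 CPM, with none of them at 0 in any group. Cells of the 3 groups held 15470, 19880 and 26260 UMIs on average. Their part in the levels of the 10 genes was not tested. From 0 to 1 to 5 Nras UMIs the summed level had overlapping intervals in NRAS.MYC.ND, at 219 and 204 CPM. Epithelial cells of AKT1.MYC had 114 CPM at 0 and 119 CPM at 1 to 5 Nras UMIs, and 0 of them had 6 or more, so a step at that level could not be looked for there.

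**Figure D4:**
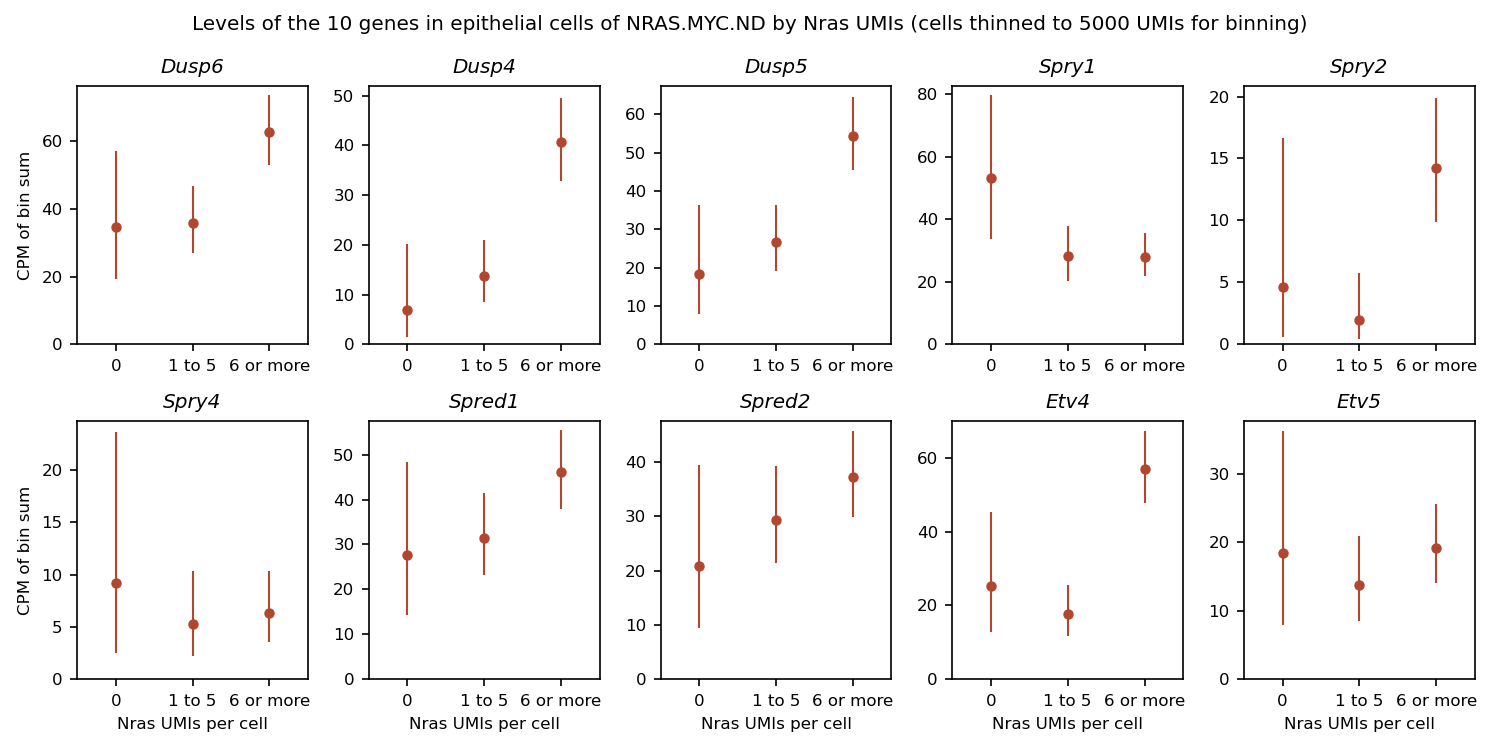
Level of each gene in epithelial cells of NRAS.MYC.ND grouped by Nras UMIs after thinning to 5000 UMIs, in CPM of the group sum with exact Poisson 95% intervals; each panel has its own axis from 0. Dusp4 reaches 40.6 CPM and Etv4 56.9 CPM in cells with 6 or more Nras UMIs, whereas Spry1 is highest, at 53.1 CPM, in cells with 0.

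In endothelial cells most of the 10 genes differed by less than 2-fold. Among 872 cells of NRAS.MYC.ND, set against 424 of AKT1.MYC, 2 of the 10 were higher by 2-fold or more and 1 was lower, beside 12.9% (NRAS.MYC.ND) and 9.56% (AKT1.MYC) of all genes measured in this class; these shares of the 10 are near the background. Spry1 had 127 CPM in NRAS.MYC.ND and 59.9 CPM in AKT1.MYC, a log2 ratio of 1.08 (0.86 to 1.31), and Spred2 had 54.1 CPM in NRAS.MYC.ND and 23.3 CPM in AKT1.MYC, a log2 ratio of 1.22 (0.86 to 1.60). Spry4 had 81.7 CPM in NRAS.MYC.ND against 51.3 CPM in AKT1.MYC, a log2 ratio of 0.67 (0.42 to 0.93). Dusp6, in its highest class, had 137 CPM in NRAS.MYC.ND and 151 CPM in AKT1.MYC with an interval that included 0 (-0.30 to 0.01). Etv4 was lower in NRAS.MYC.ND, with 1.98 CPM against 6.05 CPM in AKT1.MYC, on 16 UMIs in NRAS.MYC.ND against 19 UMIs in AKT1.MYC. Stab2, a scavenger receptor of liver sinusoidal endothelium, stood at 910 CPM in NRAS.MYC.ND and 237 CPM in AKT1.MYC, and the 8 endothelial markers together at 8647 CPM in NRAS.MYC.ND against 4947 CPM in AKT1.MYC with none at 0; their part in these ratios was not tested. After thinning to 5000 UMIs, a Spry1 UMI was present in 35.5% of endothelial cells of NRAS.MYC.ND and 22.1% of those of AKT1.MYC, while in monocytes and macrophages it was 1.64% in NRAS.MYC.ND against 2.45% in AKT1.MYC. Unthinned, those shares were 42.1% in NRAS.MYC.ND against 22.2% in AKT1.MYC in endothelial cells, with median depths of 6874 UMIs in NRAS.MYC.ND against 5496 UMIs in AKT1.MYC. In monocytes and macrophages they were 1.76% in NRAS.MYC.ND against 3.06% in AKT1.MYC.

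Fibroblasts and mural cells numbered 35 in NRAS.MYC.ND, against 460 in AKT1.MYC, which limits this comparison. Of the 10 genes, 3 stood 2-fold or more higher in NRAS.MYC.ND and 1 was lower, beside 16.6% (NRAS.MYC.ND) and 10.0% (AKT1.MYC) of all genes. Spry1 had 197 CPM in NRAS.MYC.ND and 66.9 CPM in AKT1.MYC, Spry2 had 34.7 CPM in NRAS.MYC.ND against 5.13 CPM in AKT1.MYC, and Spred2 had 46.3 CPM in NRAS.MYC.ND and 12.1 CPM in AKT1.MYC, with intervals of the log2 ratio that excluded 0. Etv4 had 7.71 CPM in NRAS.MYC.ND and 23.5 CPM in AKT1.MYC, on 2 UMIs in NRAS.MYC.ND against 101 UMIs in AKT1.MYC, and its interval included 0. Nras stood at 405 CPM in these cells of NRAS.MYC.ND and 54.7 CPM in those of AKT1.MYC, the 6 hepatocyte markers together at 2545 CPM in NRAS.MYC.ND and 307 CPM in AKT1.MYC, and the 9 epithelial gate markers at 42.4 CPM in NRAS.MYC.ND and 92.2 CPM in AKT1.MYC, with Cldn4 among those at 0 in NRAS.MYC.ND. Whether epithelial RNA plays a part in the ratios was not tested.

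Monocytes and macrophages differed in the opposite direction. None of the 10 genes was 2-fold higher in the 1419 cells of NRAS.MYC.ND and 4 were 2-fold higher in the 2320 cells of AKT1.MYC, beside 9.97% (NRAS.MYC.ND) and 16.3% (AKT1.MYC) of all 15265 genes measured. Dusp5 had 13.7 CPM in NRAS.MYC.ND and 44.1 CPM in AKT1.MYC, a log2 ratio of -1.69 (-1.94 to -1.44) on 170 UMIs in NRAS.MYC.ND against 552 UMIs in AKT1.MYC. It is the best measured of the 4, and its log2 ratio stayed between -2.17 and -1.17 over all settings tried. Dusp4 had 0.645 CPM in NRAS.MYC.ND against 3.36 CPM in AKT1.MYC, Spry1 2.10 CPM in NRAS.MYC.ND and 6.07 CPM in AKT1.MYC, and Spry2 0.484 CPM in NRAS.MYC.ND and 1.44 CPM in AKT1.MYC, with 8, 26 and 6 UMIs for these 3 genes in NRAS.MYC.ND. These levels were among the lower ones of the classes, and some neighbours were as low, such as Spry1 in neutrophils at 1.81 CPM in NRAS.MYC.ND and 6.64 CPM in AKT1.MYC. Dusp6, the most abundant of the 10 in terms of UMIs in these cells, had 106 CPM in NRAS.MYC.ND and 82.8 CPM in AKT1.MYC, a log2 ratio of 0.36 (0.24 to 0.48), and Spred1 had 43.9 CPM in NRAS.MYC.ND against 45.5 CPM in AKT1.MYC, with an interval from -0.22 to 0.12. The 5 duct markers together stood at 3.95 CPM in these cells of NRAS.MYC.ND and 258 CPM in those of AKT1.MYC, and the 7 fibroblast and mural markers at 5.00 CPM in NRAS.MYC.ND and 52.3 CPM in AKT1.MYC, with none at 0, and the part of free RNA in the low levels of Dusp4, Spry1 and Spry2 was not tested. After thinning to 5000 UMIs, a Dusp5 UMI was seen in 4.83% of these cells in NRAS.MYC.ND (3.60 to 6.31) and 16.4% in AKT1.MYC (14.1 to 18.8); unthinned shares were 7.96% in NRAS.MYC.ND against 15.6% in AKT1.MYC.

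T and NK cells, 1498 in NRAS.MYC.ND, against 102 in AKT1.MYC, had 8 of the 10 genes measured, of which 0 were 2-fold higher and 1, Etv5, was 2-fold lower in NRAS.MYC.ND, beside 13.7% (NRAS.MYC.ND) and 13.3% (AKT1.MYC) of all genes. Etv5 had 23 UMIs in NRAS.MYC.ND against 4 UMIs in AKT1.MYC and an interval that included 0. Dusp5 had 149.5 CPM in NRAS.MYC.ND and 217 CPM in AKT1.MYC, a log2 ratio of -0.54 (-0.89 to -0.17). Neutrophils, 232 in NRAS.MYC.ND against 515 in AKT1.MYC, had 4 of the 10 measured, and 0 of these were 2-fold higher in NRAS.MYC.ND, against 1 in AKT1.MYC, beside 9.20% (NRAS.MYC.ND) and 32.4% (AKT1.MYC) of all genes. It was Spred1, at 9.05 CPM in NRAS.MYC.ND and 19.0 CPM in AKT1.MYC, on 5 UMIs in NRAS.MYC.ND against 20 UMIs in AKT1.MYC, with an interval that included 0. Dusp5 in neutrophils had 121 CPM in NRAS.MYC.ND against 162 CPM in AKT1.MYC and Dusp6 had 88.7 CPM in NRAS.MYC.ND and 68.3 CPM in AKT1.MYC.

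Most other genes of the pathway differed by less than 2-fold in epithelial cells. Of 75 other pathway genes matched, 74 were measured in epithelial cells; 5 were 2-fold or more higher and 13 were 2-fold or more lower in NRAS.MYC.ND, beside 14.0% (NRAS.MYC.ND) and 14.3% (AKT1.MYC) of all genes, and their median log2 ratio of -0.12 was close to the -0.13 of all genes. Among 18 adaptors and GTPases, 1 was higher in each library, and Nras itself, at 1440 CPM in NRAS.MYC.ND and 70.6 CPM in AKT1.MYC, was the 1 higher in NRAS.MYC.ND. Of 12 kinases and scaffolds, 0 differed by 2-fold in either direction, with a median log2 ratio of 0.09. Of 15 other feedback genes, 1 was higher and 4 were lower in NRAS.MYC.ND. The first was Errfi1, an inhibitor of the EGF receptor, at 749.5 CPM in NRAS.MYC.ND against 212 CPM in AKT1.MYC, and the others included Pebp1, which inhibits RAF, at 316 CPM in NRAS.MYC.ND and 1110 CPM in AKT1.MYC, and the phosphatase Dusp1 at 341 CPM in NRAS.MYC.ND and 951 CPM in AKT1.MYC. Of 29 measured output genes, 3 were higher and 8 were lower in NRAS.MYC.ND. Emp1, a membrane protein, had 45.8 CPM in NRAS.MYC.ND against 15.7 CPM in AKT1.MYC, whereas the transcription factors Ets2 (48.0 CPM in NRAS.MYC.ND and 222 CPM in AKT1.MYC) and Fosl2 (12.7 CPM in NRAS.MYC.ND and 50.02 CPM in AKT1.MYC) and the growth factor Hbegf (143 CPM in NRAS.MYC.ND against 456 CPM in AKT1.MYC) were higher in AKT1.MYC.

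In monocytes and macrophages, 1 of 74 measured pathway genes was 2-fold higher and 21 were 2-fold lower in NRAS.MYC.ND, beside 9.97% (NRAS.MYC.ND) and 16.3% (AKT1.MYC) of all genes. Rasgrp1, an exchange factor for RAS, had 26.0 CPM in NRAS.MYC.ND and 6.47 CPM in AKT1.MYC. Among those higher in AKT1.MYC were the early response gene Ier3 (167 CPM in NRAS.MYC.ND and 1156 CPM in AKT1.MYC), Ets2 (28.4 CPM in NRAS.MYC.ND against 157 CPM in AKT1.MYC), Emp1 (17.3 CPM in NRAS.MYC.ND and 95.8 CPM in AKT1.MYC), Phlda1 (13.6 CPM in NRAS.MYC.ND and 65.0 CPM in AKT1.MYC) and Fosl2 (38.6 CPM in NRAS.MYC.ND against 137 CPM in AKT1.MYC). In endothelial cells 4 of 72 were 2-fold higher in NRAS.MYC.ND, against 10 in AKT1.MYC, beside 12.9% (NRAS.MYC.ND) and 9.56% (AKT1.MYC) of all genes, and Dusp2, a nuclear phosphatase, had 30.8 CPM in NRAS.MYC.ND and 168 CPM in AKT1.MYC. In fibroblasts and mural cells 9 of 67 were higher in NRAS.MYC.ND, against 8 in AKT1.MYC, beside 16.6% (NRAS.MYC.ND) and 10.0% (AKT1.MYC) of all genes. In T and NK cells 5 of 64 were higher in NRAS.MYC.ND, against 16 in AKT1.MYC, beside 13.7% (NRAS.MYC.ND) and 13.3% (AKT1.MYC) of all genes. In neutrophils 3 of 63 were higher in NRAS.MYC.ND, against 27 in AKT1.MYC, beside 9.20% (NRAS.MYC.ND) and 32.4% (AKT1.MYC) of all genes, and the median log2 ratio of all genes there was -0.48, that of the pathway genes also -0.48. Bcl2l11, a pro-apoptotic gene that ERK restrains, had 71.4 CPM in NRAS.MYC.ND and 217 CPM in AKT1.MYC in T and NK cells, and 50.7 CPM in NRAS.MYC.ND against 248.5 CPM in AKT1.MYC in neutrophils.

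Over 14 profiles of a class in a library with at least 50 cells, the genes most like each of the 10 were found by Pearson correlation of log2(CPM + 1) among 12595 genes. The profiles share their library, depth and free RNA, so the values describe these libraries only. Spry4 was most like Heph (0.98), Zfp423 (0.96) and Ephb4 (0.94), and Spry1 was most like Rcn1 (0.95), Mbtps1 (0.94) and Sptbn1 (0.94). Spred1 was most like Etv1 (0.94), an ETS factor of the same group as Etv4 and Etv5, then Itga9 (0.93) and Plxna4 (0.93). Etv4 was most like Cdkn2b (0.92), a cyclin-dependent kinase inhibitor, Hmga2 (0.91), a chromatin protein, and Stard13 (0.89). Dusp5 was most like Mgst2 (0.87), Il18r1 (0.87) and Il18rap (0.85), of which the last 2 encode chains of the interleukin-18 receptor. Dusp6 was most like Fmnl3 (0.90), Zswim6 (0.89) and Dnajc13 (0.89), and Dusp4 was most like Tdp2 (0.89), Gmcl1 (0.87) and Kmt2a (0.87). The nearest genes were Rnf125 (0.93), Fam193b (0.86) and Frmd8 (0.85) for Spry2, Pcdhga12 (0.89), Pcnt (0.88) and Utrn (0.87) for Spred2, and Mmp19 (0.86), Rnase4 (0.85) and Mgat5 (0.84) for Etv5.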

How the data were processed

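The labels' protocols state that tumour tissue was digested, live cells were enriched and 10x Chromium libraries were made, 1 per model. The authors deposited raw UMI counts for each gene and barcode, made with Cell Ranger against mm10, version 6.1.2 per the submitters' processing notes and 6.1.1 per the file headers. Which annotation release was used is not stated there. Barcodes with at least 500 UMIs, 250 genes and no more than 20% mitochondrial UMIs were retained. The automatic threshold of Scrublet (Scanpy 1.11.5) marked 0% of barcodes, so the top scores, at 0.8% per 1000 barcodes, were removed instead: 327 barcodes of NRAS.MYC.ND, against 912 of AKT1.MYC.

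A cell was put in a class when it had at least 2 distinct markers of it and 3 times the marker UMIs of the next class. Markers common as free RNA, such as C1q, keratin 8, collagen and plasma protein genes, were left out of the gates after inspection of the files. UMIs were summed per class and library. A gene counted as measured when the libraries together held at least 10 UMIs of it, and was counted at 2-fold or more; a count of 0 was set to the limit of 3 counts. With 1 library per group no test was run. The 10 genes, the pathway list and the markers were chosen with earlier results of these data known. All 10 genes are named, and of the other pathway genes up to 5 per direction and class, with at least 30 UMIs, at least 20 CPM in the higher library and an interval excluding 2-fold, largest ratios first. The ratio step was tested on simulated counts. The 10 alternatives were listed, and 2 more, leaving out the duct side and leaving out cycling epithelial cells, were chosen after seeing the data. Promoters are from RefSeq on GRCm38.p6.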

Additional observations from a re-analysis of the deposited data

Results flagged for a closer look

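Dusp4, Spry1, Spry2, Spred1, Etv4 and Etv5 stood at 2-fold or more in opposite directions in different classes; with 1 library per group, none of these differences between classes was tested. Dusp4 had a log2 ratio of NRAS.MYC.ND over AKT1.MYC of 1.92 in epithelial cells and -2.38 in monocytes and macrophages. Spry1 stood at 1.08 in endothelial cells and 1.56 in fibroblasts and mural cells, against -1.53 in monocytes and macrophages. Spry2 stood at 2.42 in epithelial cells and 2.76 in fibroblasts and mural cells, against -1.57 in monocytes and macrophages. Etv4 stood at 3.52 in epithelial cells, -1.61 in endothelial cells and -1.61 in fibroblasts and mural cells. Etv5 stood at 2.12 in epithelial cells and -1.45 in T and NK cells, and Spred1 at 1.09 in epithelial cells and -1.07 in neutrophils. The intervals of Etv5 in T and NK cells, Spred1 in neutrophils and Etv4 in fibroblasts and mural cells included 0.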

How the results depend on the processing

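No paired analysis was possible because each group is 1 library, and no replicate could be left out. Counts below are of the 10 genes or of other pathway genes at 2-fold or more. They stand without a share of all genes beside them, and not all of the 10 were measured in every class. They show only how far the counts move. Of the counts and medians under other settings, 278 kept their size and 37 moved. Of the ratios of single genes, 469 were marked as the same, 43 as moved and 4 as reversed. In epithelial cells, 4 of the 10 genes were higher in NRAS.MYC.ND after thinning, with a median log2 ratio of 1.04, and with equal weight per cell the median was 1.19 and 3 pathway genes were higher in NRAS.MYC.ND. The 4 marked as reversed included epithelial Dusp5 (-0.077) and Spred1 (-0.36) when thinned. The others were endothelial Dusp5 at 0.25 thinned and 0.14 at equal weight. That mark does not cover every change of sign. Dusp4 in T and NK cells went to -1.38 (-2.76 to 0.34) when thinned, from 26.9 CPM in NRAS.MYC.ND against 21.1 CPM in AKT1.MYC. Thinned signs also changed elsewhere with intervals that included 0, such as endothelial Dusp6 and Spry2, and Spred1 in monocytes and macrophages. The thinned values marked as reversed come from 1 random draw, with intervals that included 0 for all 3. In a separate draw at that depth, shares of cells with a UMI had overlapping intervals between the libraries for all 3. No direction can be read from those shares, and the cause at equal weight was not tested. With median-of-ratios scaling, 1 of the 10 was higher in NRAS.MYC.ND in endothelial cells, 3 in AKT1.MYC in fibroblasts and mural cells and 0 in AKT1.MYC in neutrophils, and 5 pathway genes were higher in NRAS.MYC.ND in each of the last 2 classes. Without doublet removal, 1 pathway gene was higher in NRAS.MYC.ND in neutrophils and 0 of the 10 in AKT1.MYC in endothelial cells. With 3 markers per gate, 1 of the 10 was higher in NRAS.MYC.ND in T and NK cells and 2 in AKT1.MYC in fibroblasts and mural cells. That setting left only 28 fibroblasts and mural cells in NRAS.MYC.ND, under the 30 cells asked of a class. It also gave 2 pathway genes higher in NRAS.MYC.ND in monocytes and macrophages. With clusters in place of gates, the 10 gave 2 higher in AKT1.MYC in T and NK cells, 0 in neutrophils and 2 in fibroblasts and mural cells. Equal weight gave 9 endothelial pathway genes higher in NRAS.MYC.ND, and in fibroblasts and mural cells 2 of the 10 and 17 pathway genes higher in AKT1.MYC. Thinning gave, of the measured ones among the 10, 1 higher in NRAS.MYC.ND in each of T and NK cells, neutrophils and fibroblasts and mural cells. It gave 0 in AKT1.MYC in neutrophils or endothelial cells. Only Dusp5, Dusp6 and Spred1 were measured in thinned neutrophils, and only Dusp6, Spry1 and Spred1 in thinned fibroblasts and mural cells. In T and NK cells the gene was Dusp6, on 92 UMIs in NRAS.MYC.ND against 2 in AKT1.MYC, with an interval from -0.34 to 4.62. Of pathway genes higher in NRAS.MYC.ND, thinning gave 5 in neutrophils, 2 in monocytes and macrophages and 7 in endothelial cells. Free RNA subtraction gave 9, 5, 5 and 17 pathway genes higher in NRAS.MYC.ND in T and NK cells, neutrophils, monocytes and macrophages, and fibroblasts and mural cells, and in the last class 5 in AKT1.MYC; of the 10, it gave 0 in neutrophils and 3 in fibroblasts and mural cells higher in AKT1.MYC. With at least 30 UMIs, 0 of the 10 were higher in AKT1.MYC in T and NK cells and in neutrophils. The Nras comparison ranged from 0.67 to 0.82 over its settings. The median of all genes lay at -0.48 in neutrophils, -0.13 in epithelial cells, 0.13 in endothelial cells and 0.14 in fibroblasts and mural cells on the log2 scale. Estimated free RNA was 4.77% of epithelial UMIs in NRAS.MYC.ND, against 12.2% in AKT1.MYC, and 4.57% of those of fibroblasts and mural cells in NRAS.MYC.ND, against 25.4% in AKT1.MYC. Depth limits Spry2 and Spry4 outside endothelial cells and all genes in the 35 fibroblasts and mural cells of NRAS.MYC.ND.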
